A study of Mus musculus with 6 samples.

Results

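TRβ1 peaks at the genes of the thyroid hormone receptors and of their partner RXRα are described here, from ChIP-seq lists of mouse liver. Members were the peaks whose midpoint lay in 1 of 3 mm9 windows. The windows were chromosome 14 from 18450000 to 18900000 for Thrb, chromosome 11 from 98570000 to 98670000 for Thra with its neighbour Nr1d1, and chromosome 2 from 27480000 to 27660000 for Rxra. They held 134 of the 98191 peaks in the 3 deposited lists, namely 84 of 51992 in the list of TRβ1 livers without T3, 47 of 46092 in the list of TRβ1 livers given T3, and 3 of 107 in the list of GFP livers.

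The mice were heterozygous for BirA, a ligase that attaches biotin to a tagged protein, and were 9 to 10 weeks old. All of them ate a diet with propylthiouracil (PTU), which blocks thyroid hormone synthesis, for 3 weeks and were infected by tail vein with an adenovirus. One group received virus for GFP alone and then saline (GFP PTU), the next received virus for GFP with biotinylated TRβ1 and then saline (TRb PTU), and the last received the TRβ1 virus and then triiodothyronine (TRb T3). Saline or T3 was injected for 4 days, and biotinylated protein was captured from liver chromatin on streptavidin. Each condition is 1 library, and the labels give neither the number of animals behind it nor the promoter that drives BirA or the viral receptor. The captured receptor is thus the viral one, in livers whose own receptor genes were not stated to be altered.

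Thyroid hormone receptors are nuclear receptors that sit on DNA with and without hormone. Without T3 they recruit corepressors at many targets, and with T3 they recruit coactivators. Thrb encodes TRβ, the main form in hepatocytes, and Thra encodes TRα. Both bind DNA mostly as heterodimers with a retinoid X receptor, of which RXRα, encoded by Rxra, is the main liver form. The classical element is a pair of AGGTCA half-sites in the same direction with 4 bases between them. Nr1d1 encodes REV-ERBα, a heme-binding repressor of the circadian clock, and is transcribed from the strand opposite to Thra so that the ends of the genes overlap. In the RefSeq order on GRCm38, Thrb lies between Rarb and Nr1d2, the Thra-Nr1d1 pair between Med24 and Msl1, and Rxra between Wdr5 and Col5a1. Peaks were not placed on exons, introns or promoters, because no mm9 annotation was used here, so a window can also hold peaks of neighbouring genes.

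No mm9 sequence was used, so the letters under the peaks are not shown. RefSeq promoters on GRCm38 were searched instead for AGGTCA on both strands in the 250 bases before each listed start. The table held 5 starts of 3 members, with Thra not matched, and 2 of the 5 had at least 1 exact match. Over all 32851 promoters of this length, 14% had a match and 1.36% had more than 1. Those with a match are shown because they carry the receptor's half-site, which is in capitals (AGGTCA, or TGACCT where it is read on the other strand). The first is the upstream Thrb start, chr14:17660710-17660959 on the plus strand, and the other is the internal Rxra start, chr2:27709042-27709291 on the plus strand.
Thrb: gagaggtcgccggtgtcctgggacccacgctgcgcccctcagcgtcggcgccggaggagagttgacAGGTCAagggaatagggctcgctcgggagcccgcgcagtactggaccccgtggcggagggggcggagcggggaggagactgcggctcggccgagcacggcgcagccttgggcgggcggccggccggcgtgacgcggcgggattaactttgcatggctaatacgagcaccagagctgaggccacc
Rxra: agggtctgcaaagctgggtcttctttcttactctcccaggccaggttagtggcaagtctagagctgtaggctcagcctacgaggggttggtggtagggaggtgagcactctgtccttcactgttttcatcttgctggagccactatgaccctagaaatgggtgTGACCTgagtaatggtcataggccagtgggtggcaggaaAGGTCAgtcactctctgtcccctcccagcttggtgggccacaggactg

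The Thrb match began 184 bases before the start. The Rxra matches began 87 and 48 bases before it and point away from each other, the first on the opposite strand. No member promoter held the full direct repeat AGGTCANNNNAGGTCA, either exactly or with up to 1 mismatch in each half-site, against 0.0152% and 1.48% of all promoters. A match describes letters only, and whether a TRβ1 peak covers these stretches was not determined.

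All 3 windows held more TRβ1 peaks in the livers without T3. Thrb had 25 TRb PTU and 18 TRb T3 peaks, a ratio of 1.39. Thra-Nr1d1 had 25 and 11, a ratio of 2.27, and Rxra had 34 and 18, a ratio of 1.89. Over the windows together the ratio was 1.79, against 1.13 over the whole lists. The background was read from windows of the same sizes on a genome grid that held at least 10 TRβ1 peaks, whose median ratios were 1.12 for the size of Thrb, 1.15 for that of Thra-Nr1d1 and 1.14 for that of Rxra. A ratio at least as high as that of Thrb was found in 29.1% of 2654 grid windows, as that of Thra-Nr1d1 in 10.2% of 3676, and as that of Rxra in 14.7% of 3653. At least 1.5 times as many TRb PTU as TRb T3 peaks were found in 23.7, 31.5 and 29.6% of them. The grid windows could hold as few as 10 TRβ1 peaks, while Thrb, Thra-Nr1d1 and Rxra held 43, 36 and 52. Ratios of few peaks scatter more, so these shares are not shares among windows with like numbers of peaks. When the TRb PTU list was shortened to its 46092 highest-scored peaks to equal the TRb T3 list, the ratios were 1.39, 1.82 and 1.56. With peaks below their list's median score left out they were 2.4, 1.5 and 1.7, which puts Thrb first and Thra-Nr1d1 last, so the order of the windows depends on the score filter. Read depth is unknown and 1 library per condition allows no test, so how these ratios vary between animals is unknown. Liver is a mixture of cell types, and more cells with bound receptor cannot be told apart from more binding per cell.

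The windows differed in how densely they were occupied. Thra-Nr1d1 had 25 TRb PTU peaks per 100 kb, Rxra 18.9 and Thrb 5.56. In TRb T3 the densities were 11, 10 and 4 peaks per 100 kb. The Thra-Nr1d1 window had more TRb PTU peaks than 99.9% of 26316 grid windows of its size, whose mean was 1.97, and more TRb T3 peaks than 97.2%. The Rxra window exceeded 99.7% of 14617 grid windows in TRb PTU and 97.7% in TRb T3. Thrb exceeded 88.9% and 83.7% of 5840. Both denser windows thus belonged to the most crowded regions of the TRβ1 lists in either hormone state, and Thrb did so less. The grid counts regions without genes too.

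**Figure D1:**
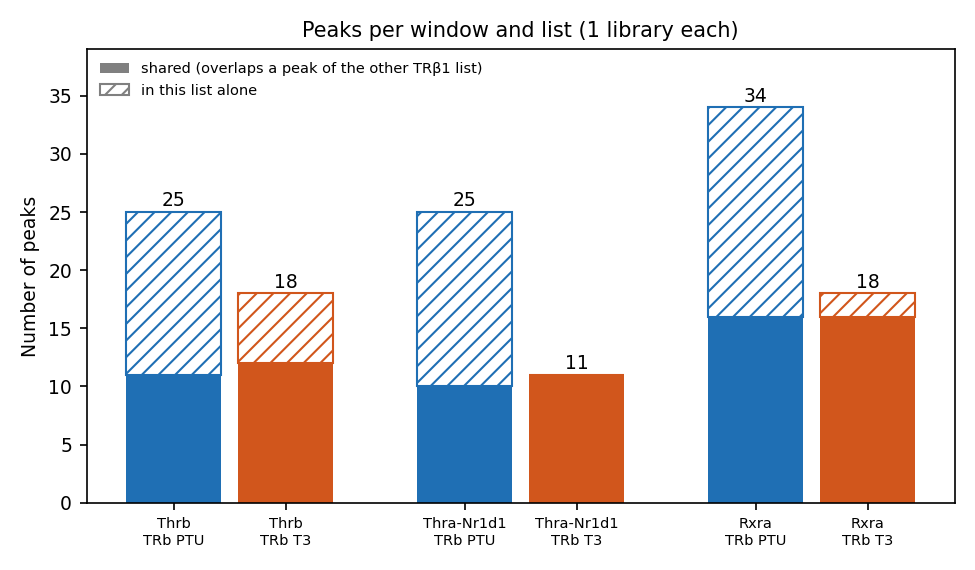
Number of TRβ1 peaks (vertical axis) in each window, with the TRb PTU and TRb T3 lists as separate bars, from 1 library each. Solid parts are peaks that overlap a peak of the other TRβ1 list and hatched parts are peaks of 1 list alone; the TRb T3 bar of Thra-Nr1d1 has 11 solid peaks and no hatched part.

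A peak was called shared when it overlapped a peak of the other TRβ1 list by at least 1 bp, and otherwise PTU-only or T3-only. Of the 47 TRb T3 peaks in the windows, 39 were shared (83.0%, exact 95% binomial interval 69.2 to 92.4%), against 61.3% of the whole TRb T3 list. Of the 84 TRb PTU peaks, 37 were shared (44.0%, interval 33.2 to 55.3%), against 53.9% of the whole TRb PTU list. The intervals cover counting error over peaks, not the variation between animals. Thra-Nr1d1 had 11 shared of 11 TRb T3 peaks (interval 71.5 to 100%), Rxra 16 of 18 and Thrb 12 of 18. In TRb PTU the shared counts were 10 of 25, 16 of 34 and 11 of 25. Most TRb T3 peaks of the receptor windows thus overlapped a TRb PTU peak, while 47 TRb PTU peaks had no TRb T3 counterpart. Both shares depend on how many peaks each list held in the windows. With 84 TRb PTU and 47 TRb T3 peaks, a ratio of 1.79 against 1.13, they are not separate from the difference in peak number. The shared peaks include 2 TRb PTU and 3 TRb T3 peaks that overlapped GFP peaks. Of the whole TRb PTU list 46.1% was PTU-only, and of the whole TRb T3 list 38.7% was T3-only.

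Most of the peaks in 1 list alone had low scores. The score is the authors' value from the peak caller, used here only to rank peaks within a list. The median score of the PTU-only peaks was 12.83 and that of the shared TRb PTU peaks 43.46, against 12.62 and 32.09 in the whole TRb PTU list, so low scores of single-list peaks were general. None of the 8 T3-only peaks reached the TRb T3 median of 22.13, against 31.5% of T3-only peaks at or above it over the whole list. Of the 47 PTU-only peaks, 12 were at or above the TRb PTU median of 19.35, against 28.4% over the whole list. The 8 T3-only peaks comprised 6 at Thrb and 2 at Rxra.

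**Figure D2:**
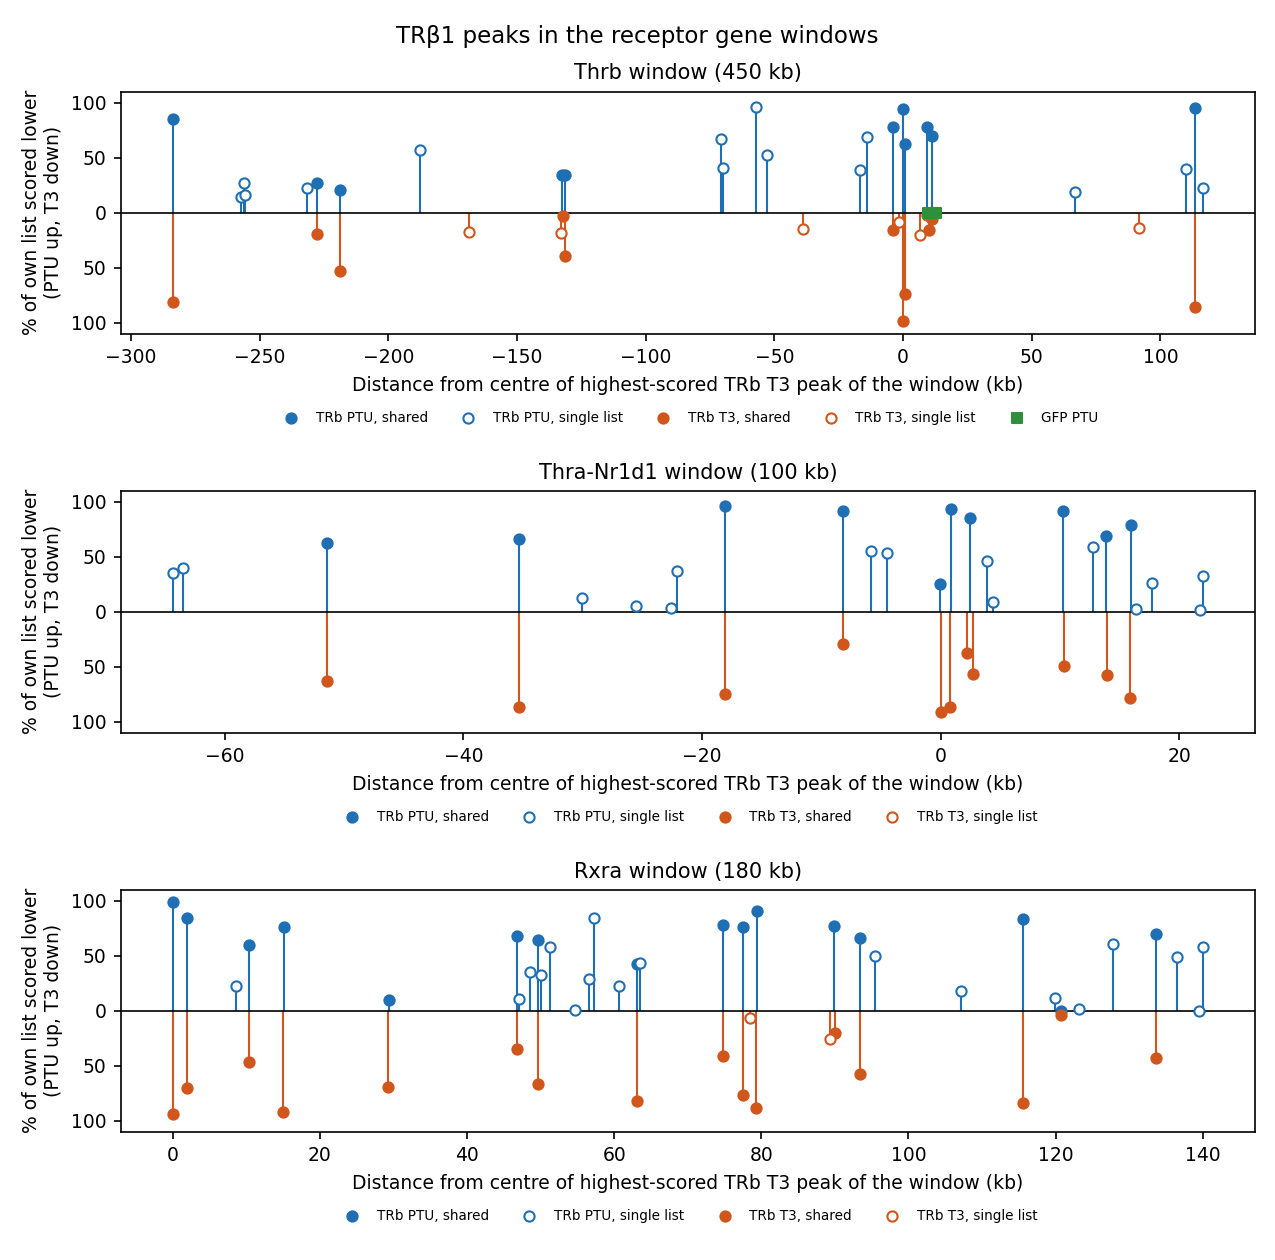
Peaks of the 3 windows by distance in kb from the centre of the highest-scored TRb T3 peak of each window (horizontal axis), with the percentage of the peak's own list that scored lower (vertical axis, TRb PTU upward and TRb T3 downward). Filled points are shared peaks, open points are peaks of 1 TRβ1 list, and green squares are the 3 GFP PTU peaks, which lie in the Thrb window alone.

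Thrb, the gene of the receptor form that was tagged, had a few strong sites spread over its 450 kb. Most of its TRb T3 peaks scored low, with 12 of 18 in the lowest score quartile of their list. The site with the highest TRb T3 score, at 18749189 to 18749505, scored 186.84 in TRb T3, above 98.2% of that list. Its TRb PTU peak at 18749194 to 18749508 scored 117.33, above 94.4% of that list. A weaker peak lay within 1 kb of it, at 18750000 to 18750170 in TRb T3 (45.29) and at 18749971 to 18750173 in TRb PTU (27.14). In TRb T3 no other peak of the window scored as high as the first of these sites, while in TRb PTU other peaks scored higher.

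Further shared Thrb sites lay near both ends of the window. The site at 18465514 to 18465723 scored 65.89 in TRb PTU, above 85.5% of the list, and 59.76 in TRb T3, above 81.5%. The site at 18862599 to 18862970 scored 127.45 in TRb PTU, above 95.4%, and 73.30 in TRb T3, above 85.9%. Among the 5 highest scores of each list were also a TRb PTU peak at 18745398 to 18745593 (47.37) and a TRb T3 peak at 18530564 to 18530713 (23.87). Both were shared, with scores of 9.58 and 9.47 in the other list.

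The highest-scored TRb PTU peak at Thrb had no TRb T3 counterpart. It lay at 18692048 to 18692605, was 558 bp wide, and scored 147.08, above 96.7% of the TRb PTU list. The nearest TRb T3 midpoint was 18141 bp away. Of the 9 TRb PTU peaks of the windows in the top score decile of their list, this was the 1 that was PTU-only, and over the whole list 5.58% of top-decile peaks were. It stood among other PTU-only peaks at or above the list's median. These were at 18678401 to 18678701 (32.21), 18696470 to 18696641 (20.56), 18735036 to 18735323 (33.71) and, at lower coordinates, 18561489 to 18561693 (23.74). TRb T3 had no peak from 18618124 to 18710401, a gap of 92278 bp, the widest of that list within any of the windows. TRb PTU called 4 peaks wholly inside this gap. For much of its length the gap was empty in both lists, since TRb PTU had no peak from 18618132 to 18678400 (60269 bp).

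A stretch of the Thrb window was called in GFP livers as well, which carried no tagged receptor. The 3 GFP PTU peaks lay at 18758368 to 18759802 (score 26.72), 18759857 to 18761850 (21.79) and 18761916 to 18762336 (9.71). The gaps between them were 54 and 65 bp, so they formed nearly continuous signal over 3969 bp. They were wide for that list, whose median width was 70 bp: the 1994 bp and 1435 bp peaks were its widest and next widest. Together they made up 3850 of the 12207 bp the GFP list covered, or 31.5%. The Thra-Nr1d1 and Rxra windows had 0 GFP peaks.

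The TRβ1 lists covered this stretch unequally. TRb PTU called it as 2 peaks, at 18758207 to 18758809 (46.85) and 18758888 to 18762399 (35.11), which covered 98.0% of it. The latter was 3512 bp wide, and 2 of the 51992 TRb PTU peaks reached 3000 bp. TRb T3 called 3 peaks narrower than these, at 18758436 to 18758636 (5.15), 18759489 to 18759646 (9.58) and 18760501 to 18760671 (6.73), which covered 13.4% of the stretch. The highest of these scores was above 16% of the TRb T3 list. At these 5 TRβ1 peaks bound receptor cannot be told apart from signal that was called without tagged receptor. Over the whole lists 0.162% of TRb PTU and 0.102% of TRb T3 peaks overlapped a GFP peak. TRb PTU met 3 of the 3 GFP peaks (86% over the whole GFP list) and TRb T3 met 2 (48.6%). The receptor DNA was delivered by virus to the TRβ1 livers, while the GFP livers received virus for GFP alone. Whether reads from viral receptor sequence contributed to the TRβ1 peaks of this stretch or to any other Thrb peak was not tested. Without these 5 peaks, 39.1% of TRb PTU and 60.0% of TRb T3 peaks at Thrb were shared, against 44.0% and 66.7% with them.

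**Figure D3:**
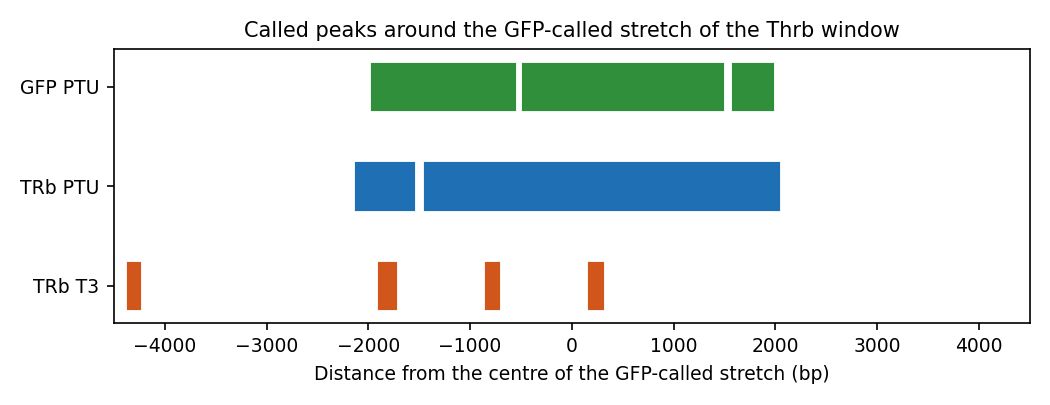
Extent of the called peaks (bars) in the GFP PTU, TRb PTU and TRb T3 lists by distance in bp from the centre of the stretch called in GFP livers. GFP PTU and TRb PTU cover 97.0% and 98.0% of the 3969 bp, and TRb T3 covers 13.4%.

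In the Thra-Nr1d1 window every peak called with T3 overlapped a peak called without it by at least 1 bp. With midpoints within 200 bp counted as shared, 90.9% of the 11 TRb T3 peaks were. With peaks below the median score left out of both lists, 87.5% of 8 were shared. Between 98616175 and 98656527 lay 17 of the 25 TRb PTU peaks and 9 of the 11 TRb T3 peaks. These bounds are the start and end of TRb PTU peaks and were taken from the same data. The highest-scored TRb PTU peak lay at 98616175 to 98616493 and scored 147.98, above 96.7% of the list. The same site scored 46.11 in TRb T3 (98616261 to 98616474), above 74.7%. The highest-scored TRb T3 peak lay at 98634216 to 98634657 and scored 95.82, above 90.8% of the list. At this site TRb PTU had a peak at 98634283 to 98634522 with a score of 10.68, above 25.5%. The highest-scored site was thus a different one in each list.

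A site less than 1 kb from the latter was strong in both lists. It lay at 98634996 to 98635561 in TRb PTU (112.68, above 93.9%) and at 98634964 to 98635534 in TRb T3 (76.56, above 86.7%). Next to it a wide TRb PTU peak at 98636492 to 98637332 (67.14) met 2 TRb T3 peaks, at 98636557 to 98636752 (16.10) and 98636822 to 98637375 (26.44). The remaining peaks among the 5 highest of a list were at 98644438 to 98644959 (98.48) and 98626067 to 98626373 (97.07) in TRb PTU, and at 98599011 to 98599233 (77.52) and 98650121 to 98650444 (53.52) in TRb T3. The 15 PTU-only peaks of this window were mostly weak. The 3 at or above the list's median were at 98628267 to 98628932 (22.32), 98629713 to 98630109 (21.32) and 98647128 to 98647294 (24.82).

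Rxra had the most TRb PTU peaks of the windows, 34, and as many TRb T3 peaks as Thrb, 18. Its highest score in both lists was at the window's edge, at 27480288 to 27480791 in TRb PTU (222.55, above 99%) and 27480257 to 27480758 in TRb T3 (117.64, above 93.8%). The TRb PTU midpoint lay 539 bp inside the edge, and the next peak outside, at 27454625 to 27455942, scored 203.36. Whether this site belongs to Rxra or to a flanking gene was not determined. The second-highest TRb PTU score was at 27559622 to 27560153, a shared site with 89.73 in TRb PTU and 83.49 in TRb T3. Sites at 27482195 to 27482671 (63.06 and 39.27) and 27595770 to 27596247 (60.67 and 65.57) were also called in both.

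Other Rxra sites differed in rank between the TRβ1 lists, to differing degrees. The TRb T3 peak at 27495362 to 27495757 had the second-highest TRb T3 score of the window, 105.58, above 92.4% of its list, and its TRb PTU partner scored 44.19, above 76.4%. The TRb T3 peak at 27543564 to 27543743 scored 61.91, above 82.3%, and its partner scored 15.69, above 42.2%. In the opposite direction, the TRb PTU peak at 27570282 to 27570562 scored 45.97, above 77.4%, and its TRb T3 partner scored 10.78, above 20.5%. This site was picked after its values had been seen. The TRb PTU peak at 27537642 to 27537935 scored 62.33, above 84.4%, and was PTU-only, with the nearest TRb T3 midpoint 5865 bp away. The other PTU-only peaks at or above the median were at 27531609 to 27531892 (24.37), 27608195 to 27608374 (26.39) and 27620455 to 27620687 (24.37). The 2 T3-only peaks scored 6.96 and 12.05.

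The windows' edges mattered least at Thrb. There the nearest TRβ1 peaks outside had midpoints at least 405805 bp before the start and at least 167285 bp past the end, so moving those edges by 50 kb added no peak. At the start of Thra-Nr1d1 a TRb PTU peak (13.60) lay 86 bp inside and another (11.90) lay 465 bp outside. Widening by 50 kb on each side gave Thra-Nr1d1 33 TRb PTU and 13 TRb T3 peaks, and Rxra 43 and 27.

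Shared sites were next compared by rank. Pairs were taken in which each peak overlapped no other peak of the opposite TRβ1 list, and both scores were turned into percentiles among all 27010 such pairs. The windows held 35 pairs. In 15 of them (42.9%) the TRb T3 rank was the higher one and in 20 the TRb PTU rank, and over all pairs 48.9% had the higher rank in TRb T3. The counts higher in TRb T3 were 4 of 10 at Thrb, 4 of 9 at Thra-Nr1d1 and 7 of 16 at Rxra. With ranks taken over all peaks of each list instead, they were 4, 3 and 6. The ranks differed by more than 25 points in 14 of the 35 pairs (40.0%), against 35.8% of all pairs. The median rank difference was -2.14 points in the windows and -0.474 points over all pairs. By the counts of 15 and 20, the windows held sites of both directions. Midpoints of paired peaks differed by a median of 26.5 bp in the windows, against 18.5 bp over all pairs.

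Single sites were ranked far apart in either direction. Of the 3 pairs with the largest difference toward TRb T3, the first was the Thra-Nr1d1 site at 98634216 (73.4 points, percentile 12.9 in TRb PTU and 86.3 in TRb T3). The others were at Rxra, at 27509747 (54.4 points, 4.10 and 58.5) and at 27543564 (49.8 points, 24.8 and 74.6). Of the 3 with the largest difference toward TRb PTU, the first was the Thra-Nr1d1 site at 98626174 (-66.1 points, 85.8 in TRb PTU and 19.7 in TRb T3). The next was the Thrb peak at 18758436 in the stretch also called in GFP livers (-62.2 points, 63.6 and 1.48), followed by the Thrb site at 18745433 (-54.5 points, 64.3 and 9.82). The Thra-Nr1d1 window thus held the largest difference of each direction among the 35 pairs. Its sites at 98644602 (-49.3 points) and 98616261 (-29.1 points) also ranked lower with T3, and its site at 98599011 ranked higher (32.5 points). These last 3 sites were picked after their values had been seen.

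**Figure D4:**
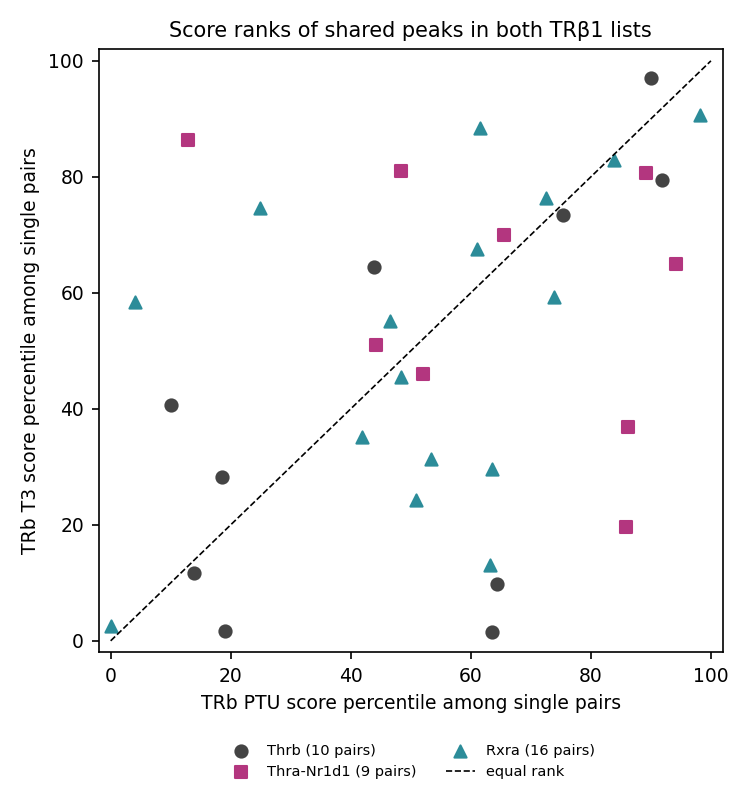
Score percentile in TRb PTU (horizontal axis) and in TRb T3 (vertical axis) among the 27010 single pairs, for the 35 pairs in the windows. Points above the dashed line ranked higher with T3 (15 pairs) and points below it ranked lower (20 pairs).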

How the data were processed

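Streptavidin ChIP-seq was done in 3 samples, of which GFP PTU carried no tagged receptor. The 3 input samples were not analysed here. Groups came from the sample titles. The authors deposited 1 peak list per ChIP sample with a score per peak, and the submitters' processing notes name Bowtie, SAMtools, MACS2 and mm9. Versions, settings and the control library were not given in the sources used here. Which statistic the deposited score holds is likewise unknown.

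Positions are 1-based. Peaks were assigned by midpoint, and overlap meant at least 1 bp. Grid windows ran from position 1 of chromosomes 1 to 19 and X. Shares have exact (Clopper-Pearson) 95% intervals. Peaks named are the GFP peaks, the 5 highest-scored of each TRβ1 list per window, single-list peaks at or above their list's median, and the 3 pairs with the largest rank difference in each direction. Others are said to be chosen later or serve as partners or neighbours. Windows and rules were chosen with earlier results of these data known. Other receptor pathway genes were planned and not counted, because no mm9 annotation was used. Overlap calling was checked on simulated peak lists with known overlap. The software was scipy 1.17.1, pandas 2.3.3 and numpy 2.4.6 under Python 3.11.15.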

Additional observations from a re-analysis of the deposited data

How the results depend on the processing

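No paired analysis was possible because there was only 1 library per condition. Of 81 values recomputed under other settings, 74 stayed within 1.5 times the main count or within its interval. Keeping peaks at or above their list's median score gave 12 TRb PTU and 5 TRb T3 peaks at Thrb and 12 TRb PTU peaks at Thra-Nr1d1. At Rxra it gave 17 TRb PTU and 10 TRb T3 peaks. The ratios of TRb PTU to TRb T3 peaks were then 2.4, 1.5 and 1.7. Such a filter lowers counts by construction, but Thrb kept only 5 of its 18 TRb T3 peaks. There 12 of the 18 were in the lowest score quartile of their list. With midpoints within 1 kb counted as shared, 100% of TRb T3 peaks at Rxra were shared. Searching for the direct repeat with up to 1 mismatch in each half-site left 0 of 5 member promoters with a match. Unknown read depth limits each comparison of peak numbers.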
